A study of Mus musculus with 9 samples.

Results

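The 5 genes described here, Acta2, Actg2, Tagln, Myl9 and Lmod1, encode parts of the smooth muscle contractile apparatus. They were picked by symbol, with their levels in these libraries in view, out of a table of 15620 rows. Of those rows, 15446 carried a symbol used once, and each of the 5 genes was among them. The libraries came from ROC6, an oral squamous line of the mouse that was grown in serum-containing medium. Polyadenylated RNA was read in 3 groups of 3 libraries: a Csmd3 knockout made with guide 1, a Csmd3 knockout made with guide 2, and a WT control of the same line without the knockout. The series speaks of clone 1 and clone 2, so each knockout may stand for a single clone, and nothing in the labels ties the replicates to separate cultures. The knockout state of the libraries rests on their labels, since Csmd3 was not analysed here.

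Smooth muscle cells contract when myosin, switched on by phosphorylation of its regulatory light chain, pulls on filaments built from muscle-type actins. Serum response factor (SRF) binds a DNA element called the CArG box in many of the genes for this machinery, together with myocardin or the myocardin-related factors, which respond to the pool of free actin. Outside muscle the same genes are known from myofibroblasts, from myoepithelial cells and from cultured epithelial cells that spread or take on mesenchymal traits. Of the 5 genes, Acta2 encodes the alpha smooth muscle actin of vessels and Actg2 the gamma smooth muscle actin of the gut wall. Tagln encodes transgelin, which binds and bundles actin filaments. Myl9 encodes a myosin regulatory light chain, and Lmod1 a leiomodin, which nucleates actin filaments in smooth muscle.

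Levels were given as FPKM, read fragments corrected for transcript length and for library size, which allows levels of different genes to be set side by side. The scaling leaves no read totals, so the depth behind each value is unknown. Summed FPKM over the uniquely named genes ran from 162625 to 168620 per library. In 15441 of the 15446 rows the means of both knockouts were above, or both were below, that of the control, so a shared direction is a property of the table and says nothing in particular about a gene. Shares of the genes tested given below are likewise shares of this table, not of all expressed genes. Each of the 5 genes reached a mean of 1 FPKM over the 9 libraries, the level above which genes were tested; Lmod1, at under 1 FPKM in every control library, did so through the knockouts. Because the 5 genes were chosen on these values, their differences between groups are given as descriptions, with no test. In RNA from whole cultures, a larger share of expressing cells and more RNA per cell cannot be told apart.

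Upstream sequences are shown for Acta2, Myl9 and Lmod1, because genes of this class are known for CArG boxes close to the start site. RefSeq windows matched 3 of the 5 genes. The 250 bases before the start site are printed on the coding strand, from build GRCm38.p6: chr19:34255374-34255623 (minus strand) for Acta2, chr2:156775214-156775463 (plus strand) for Myl9 and chr1:135324563-135324812 (plus strand) for Lmod1. Capitals mark a CArG box, a CArG-like element in which 1 of the 6 central bases is G or C, or the letters CATTCC on either strand, the core of the element read by TEAD factors.
Acta2: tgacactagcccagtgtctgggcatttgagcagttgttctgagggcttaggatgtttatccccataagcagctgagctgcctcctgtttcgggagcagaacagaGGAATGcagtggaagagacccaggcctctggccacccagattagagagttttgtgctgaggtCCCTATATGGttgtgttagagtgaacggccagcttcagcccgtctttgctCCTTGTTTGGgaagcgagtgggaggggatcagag
Myl9: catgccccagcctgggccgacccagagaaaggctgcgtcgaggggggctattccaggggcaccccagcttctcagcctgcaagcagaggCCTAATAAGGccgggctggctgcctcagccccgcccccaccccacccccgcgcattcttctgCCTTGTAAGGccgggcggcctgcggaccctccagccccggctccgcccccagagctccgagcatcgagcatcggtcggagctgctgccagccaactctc
Lmod1: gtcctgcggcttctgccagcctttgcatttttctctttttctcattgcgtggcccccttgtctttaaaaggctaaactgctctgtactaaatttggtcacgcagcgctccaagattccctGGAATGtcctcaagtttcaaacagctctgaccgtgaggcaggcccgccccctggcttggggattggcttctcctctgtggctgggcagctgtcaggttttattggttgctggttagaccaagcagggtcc
The Acta2 window held CArG-like elements from -84 to -75 (CCCTATATGG) and from -34 to -25 (CCTTGTTTGG), counted from the start site, and CATTCC on the reverse strand from -146 to -141. The Myl9 window held a CArG box from -161 to -152 (CCTAATAAGG) and a CArG-like element from -99 to -90 (CCTTGTAAGG). The Lmod1 window held CATTCC on the reverse strand from -130 to -125. Among 32851 RefSeq windows of the same length, 1.47% held a CArG box, 7.24% a CArG-like element and 12.6% CATTCC on either strand. None of the capitalised stretches overlap, and a match is a description of letters, not of a site in use.

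The 5 genes did not share 1 pattern. Actg2 and Myl9 were high in both knockouts at close levels. Acta2 and Lmod1 were high in both, with guide 2 below guide 1 (ratios of means 0.511 and 0.487). Tagln was high with guide 1 alone. With guide 1, all 5 genes had every knockout library above every control library, as did 32.3% of the 6965 genes tested. With guide 2, 4 of the 5 did, against 33.1% of genes tested, and 4 of the 5 did so with both guides, against 24.7%. None of the 5 had all knockout libraries below the control, as 39.7% of genes tested did with guide 1, 35.5% with guide 2 and 29% with both. Since the genes were chosen on these contrasts, nothing is read from those counts.

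**Figure D1:**
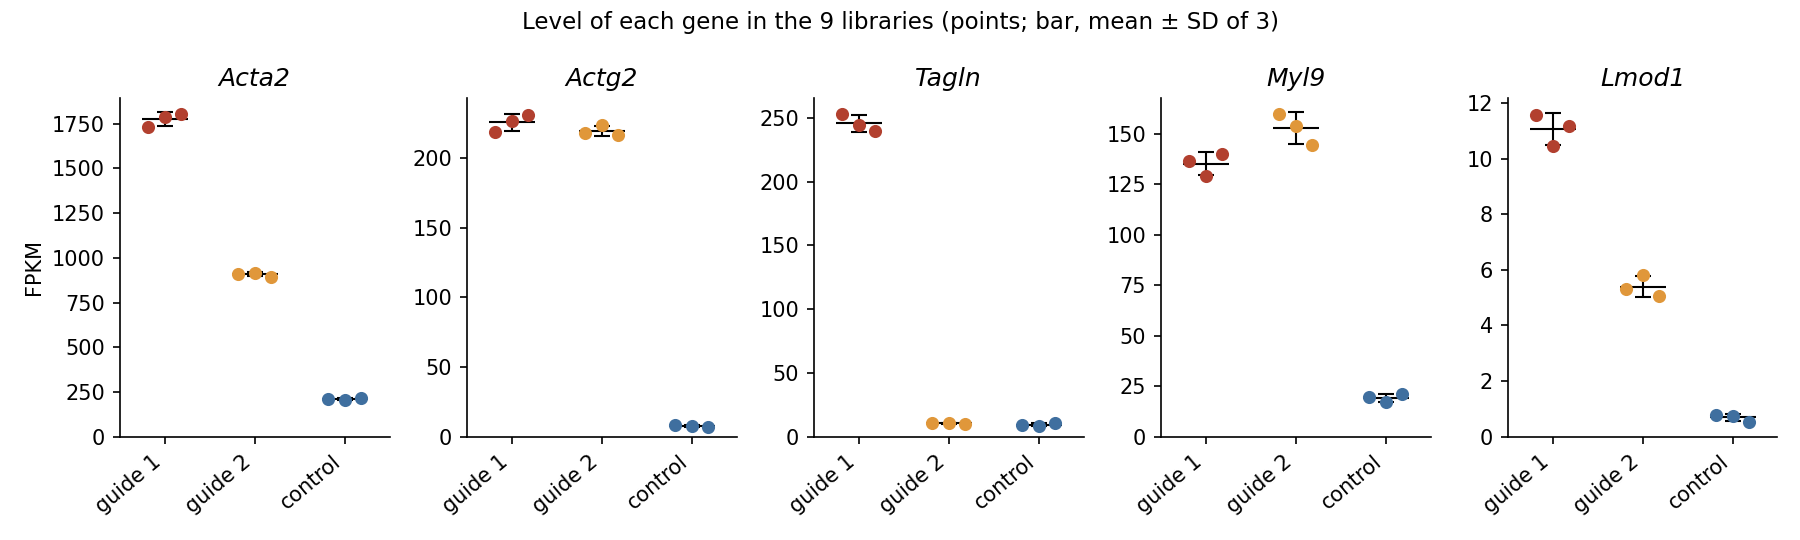
FPKM (linear axis from 0, own scale for each gene) of Acta2, Actg2, Tagln, Myl9 and Lmod1 in the guide 1 knockout, the guide 2 knockout and the control. Points are libraries and bars are the mean ± SD of 3. Tagln is near 10.4 FPKM with guide 2 and 9.43 in the control, while the other genes are above the control with both guides.

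Acta2 was the most abundant of the 5. It stood at 1733, 1787 and 1807 FPKM in the guide 1 libraries, at 912, 915 and 895 FPKM in the guide 2 libraries, and at 209, 207 and 215 FPKM in the control libraries. The groups did not overlap, and the largest coefficient of variation within a group was 2.16%. The ratio of means to the control was 8.45 with guide 1 and 4.32 with guide 2. Ranks here are within the uniquely named genes of this table, not among all expressed genes. In the guide 1 libraries Acta2 was the third most abundant of these genes in each library. It ranked between 11 and 13 with guide 2 and between 103 and 107 in the control.

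Actg2 stood at 219, 227 and 231 FPKM with guide 1, at 218, 224 and 217 FPKM with guide 2, and at 8.21, 7.72 and 6.66 FPKM in the control. Both knockouts were far above the control and overlapped with each other. The ratio of means to the control was 29.96 with guide 1 and 29.1 with guide 2, the widest separation from the control among the 5 genes for each guide. Any single knockout library exceeded any control library by a factor of at least 26.4. Guide 2 over guide 1 gave a ratio of 0.973, with single-library ratios between 0.938 and 1.02.

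Tagln stood at 253, 244 and 240 FPKM in the guide 1 libraries, at 10.5, 10.7 and 10.1 FPKM in the guide 2 libraries, and at 8.88, 8.47 and 10.9 FPKM in the control. The guide 2 and control libraries overlapped, and every guide 1 library lay above both. The ratio of means to the control was 26.1 with guide 1 and 1.11 with guide 2. Guide 2 over guide 1 gave 0.0425. Tagln per unit of Acta2 was 0.139 ± 0.00692 in the guide 1 libraries, 0.0115 ± 0.000203 in the guide 2 libraries and 0.0448 ± 0.00530 in the control (SD, n = 3 each), so in the guide 2 libraries transgelin transcripts were scarcer relative to alpha smooth muscle actin than in either other group.

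Myl9, the light chain whose phosphorylation turns myosin on, stood at 136, 129 and 140 FPKM with guide 1, at 160, 154 and 144 FPKM with guide 2, and at 19.6, 17.0 and 21.0 FPKM in the control. It was the only one of the 5 with a higher mean in the guide 2 than in the guide 1 libraries, with 153 ± 7.74 against 135 ± 5.64 FPKM (SD, n = 3 each). Its 3 guide 2 libraries lay above its 3 guide 1 libraries, a separation that 34.8% of the genes tested showed in that direction. Ratios of means to the control were 7.03 with guide 1 and 7.95 with guide 2.

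Lmod1 was the least abundant. It stood at 11.6, 10.5 and 11.2 FPKM with guide 1, at 5.30, 5.81 and 5.06 FPKM with guide 2, and at 0.776, 0.756 and 0.539 FPKM in the control. The groups did not overlap. Ratios of means to the control were 16.0 with guide 1 and 7.82 with guide 2, and on the log2(FPKM + 1) scale, which compresses low levels, the differences were 2.84 and 1.92. Guide 2 lay below guide 1 in all libraries for Acta2, Tagln and Lmod1, a separation shown by 26.6% of the genes tested.

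**Figure D2:**
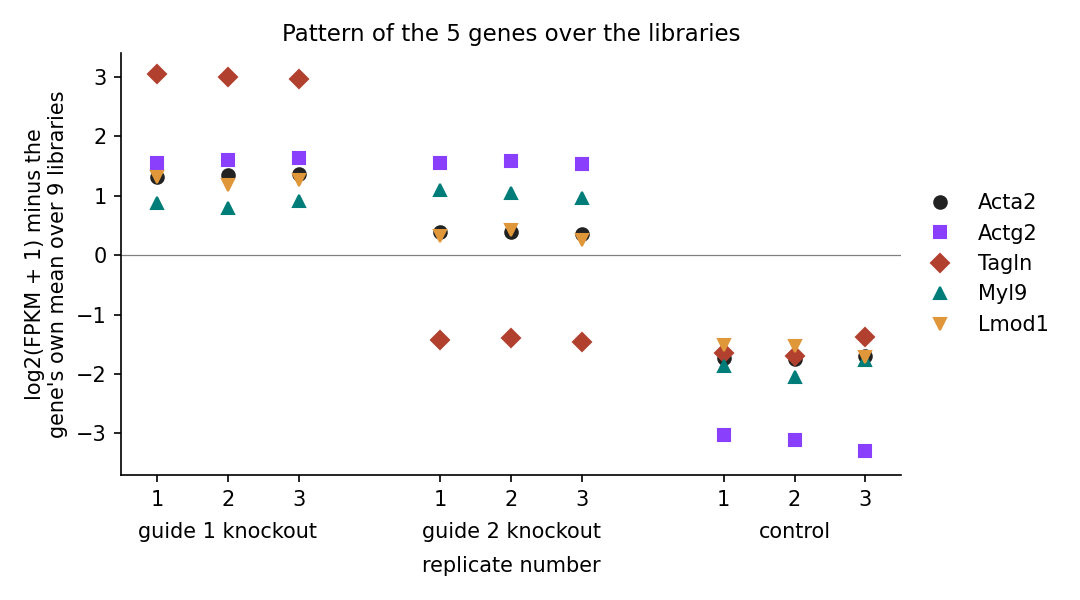
log2(FPKM + 1) of each gene minus its own mean over the 9 libraries, by group and replicate number, each point a library. Acta2 and Lmod1 lie together in all groups, Tagln is at or below -1.37 in both the guide 2 and the control libraries, and Actg2 reaches its lowest values, between -3.29 and -3.03, in the control.

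Likeness between genes was measured as the root mean square difference of log2(FPKM + 1) over the 9 libraries, after each gene was centred on its own mean, among the 4646 genes that averaged at least 5 FPKM. Acta2 and Lmod1 were each other's nearest gene, at 0.133 log2 units. That closeness depends on the scale: with a pseudocount of 0.1 neither was among the other's 3 nearest, and on plain FPKM the guide 1 ratio to the control was 8.45 for Acta2 and 16.0 for Lmod1. Between the 5 genes the largest distance was 2.11 log2 units, for Actg2 and Tagln. The next nearest to Acta2 were Pkp2, a desmosomal plaque protein, at 0.225 and Glipr2 at 0.247. Those next nearest to Lmod1 were Glipr2 at 0.167 and Trim47 at 0.173.

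Tagln was nearest to Krt18, a keratin of simple epithelia, at 0.197 log2 units. Krt18 averaged 119 ± 6.56 FPKM with guide 1, 5.01 ± 0.910 FPKM with guide 2 and 3.70 ± 0.561 FPKM in the control (SD, n = 3 each). Pgf, a placental growth factor, followed at 0.461, and Ccn2, a matricellular protein, at 0.652. Myl9 was nearest to Igfbp3, a binding protein of insulin-like growth factors, at 0.157, then to Ptgs2, the inducible prostaglandin synthase, at 0.191 and to the linker histone gene H1f2 at 0.219. Actg2 had no close match: its nearest genes were Il1rl1 at 0.771, Prl2c2 at 0.780 and Ptgs2 at 0.875 log2 units. Prl2c2 was listed at 0 in 1 control library. These distances describe the 9 libraries, which fall into 3 groups, and carry no test.

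The actins of non-muscle cells were also higher in the knockouts, by much less. Actb, cytoplasmic beta actin, averaged 2181 ± 52.3 FPKM with guide 1, 1734 ± 15.7 FPKM with guide 2 and 1541 ± 78.1 FPKM in the control (SD, n = 3 each). It rose by 0.50 log2 units with guide 1 (SE 0.0443, limma adjusted p = 3.1e-06) and 0.17 with guide 2 (limma adjusted p = 0.0061, but 0.227 when genes with low values were kept in the fit). Actg1, cytoplasmic gamma actin, averaged 1387 ± 21.7, 1590 ± 2.26 and 824 ± 29.8 FPKM in the guide 1, guide 2 and control libraries, and rose by 0.75 log2 units with guide 1 and 0.95 with guide 2 (limma adjusted p = 5.35e-08 and 1.37e-08, SE 0.0388). Acta1, the skeletal muscle actin, had group means of at most 0.218 FPKM. Over these 5 actins, Acta2 and Actg2 together made up 35.9 ± 0.886% of the summed FPKM in the guide 1 libraries, 25.3 ± 0.221% in the guide 2 libraries and 8.44 ± 0.222% in the control (SD, n = 3 each). The Acta2 to Actg2 ratio was 7.87 ± 0.0528 in the guide 1 libraries, 4.14 ± 0.0480 in the guide 2 libraries and 28.2 ± 3.62 in the control.

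**Figure D3:**
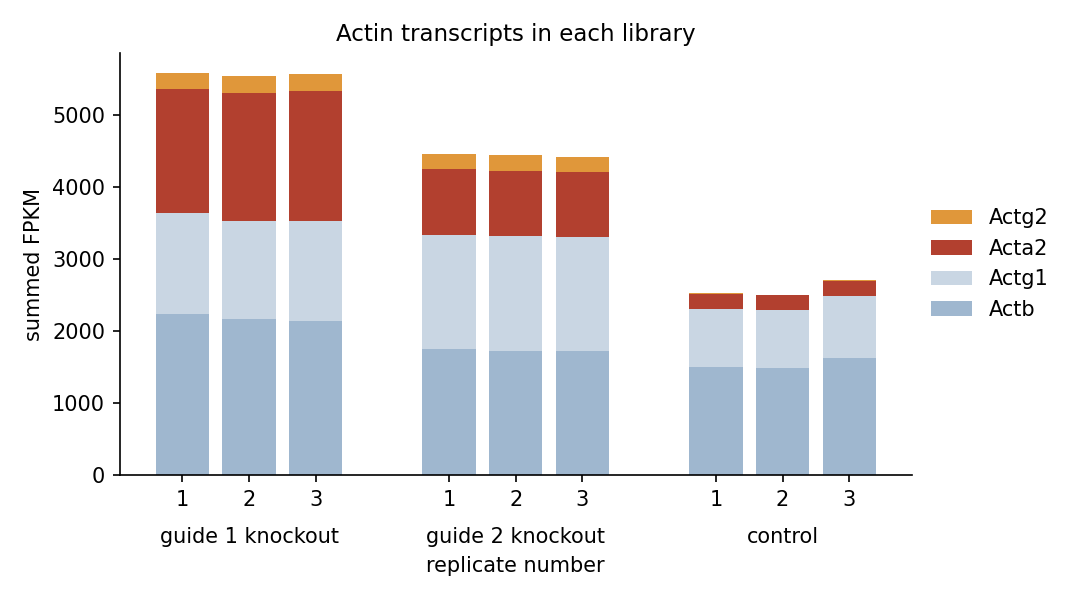
Stacked FPKM of Actg2, Acta2, Actg1 and Actb in each library of the guide 1 knockout, the guide 2 knockout and the control. With Acta1, which is too low to draw, the sums averaged 5570 FPKM in guide 1 libraries, 4451 in guide 2 libraries and 2583 in the control, and the 2 smooth muscle actins take a larger part of the bar in the knockouts.

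Actin genes have closely related coding sequences, so reads could be assigned to the wrong one. In GENCODE M21 transcripts, 0.352% of the 50-base words of the longest Acta2 transcript also occurred in another gene, mainly Actg1 and its pseudogenes, and 0 of the words of Actg2, Tagln, Myl9 or Lmod1 did. With 100-base words the count was 0 for all 5 genes. Words with mismatches were not compared. In the same annotation, exons of Tagln shared 108 bases with Pcsk7 and 1241 bases with the predicted gene Gm48529, both on the opposite strand, and no other of the 5 genes shared exon bases. The libraries were prepared with a stranded kit, but whether strand was used in quantification is not given in the sources used here.

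Paralogs of the 5 genes were tested as a list with the other actins. Of 19 listed genes, 10 had a row and 7 were tested, and all 7 rose with guide 1 and with guide 2. Of all 6965 tested genes, 68.1% were called with guide 1 and 30.2% rose, and 65.4% were called with guide 2 and 31.9% rose. The median log2 difference of the 7 was 0.81 with guide 1 and 0.32 with guide 2, against -0.04 and -0.03 over all tested genes. This list and the contractile apparatus, regulator and TGF-beta lists below were chosen with earlier results of these data known. Nearly all rows share a direction between the guides, so their guide 2 counts are not separate from their guide 1 counts. The counts and medians of these lists are therefore descriptions. Tagln2, the transgelin of non-muscle cells, averaged 560 ± 7.04 FPKM with guide 1, 350 ± 2.17 FPKM with guide 2 and 318 ± 12.9 FPKM in the control (SD, n = 3 each). It rose by 0.81 log2 units with guide 1 (SE 0.0398, limma adjusted p = 3.56e-08) and 0.14 with guide 2 (limma adjusted p = 0.0109, or 0.0508 without control replicate 2). Myl12a, a non-muscle regulatory light chain, rose by 1.08 with guide 1 and by 0.17 with guide 2. The guide 2 call for Myl12a (limma adjusted p = 0.0282) was lost without guide 2 replicate 1 or 2 (0.092 and 0.052), without control replicate 1 or 2 (0.0728 and 0.0865) and with genes of low values kept in the fit (0.0801). Cnn2, a calponin of non-muscle cells, rose by 1.40 and 0.72 log2 units, Cnn3 by 0.16 and 0.82, and Tmod3, a capping protein of actin filaments related to the leiomodins, by 0.85 and 0.32, with guide 1 and guide 2. Tmod1 and Myl2 had rows but means under 1 FPKM.

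The rest of the contractile apparatus rose in part. Of 32 listed genes other than the 5, 27 had a row and 15 were tested. With guide 1, 11 of the 15 rose and 2 fell, against 30.2% and 37.9% of all tested genes. With guide 2, 10 rose and 3 fell, against 31.9% and 33.5%. Median log2 differences were 0.53 and 0.59, against -0.04 and -0.03 over all tested genes. Between the knockouts, 3 of the 15 were higher and 8 lower with guide 2 than with guide 1, where 31.2% and 23.3% of all tested genes were and 54.5% were called in either direction.

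Fhl1, a LIM domain protein of muscle, rose most with guide 1. It averaged 300 ± 13.3 FPKM with guide 1, 132 ± 3.23 FPKM with guide 2 and 58.8 ± 7.17 FPKM in the control (SD, n = 3 each), and rose by 2.34 log2 units with guide 1 and 1.15 with guide 2 (limma adjusted p = 1.69e-09 and 3.79e-07, SE 0.0748). Tpm1, a tropomyosin that winds along actin filaments, averaged 433 ± 18.45, 262 ± 9.64 and 121 ± 11.6 FPKM in the guide 1, guide 2 and control libraries and rose by 1.84 and 1.12 log2 units. Vcl, vinculin of the sites where filaments meet the membrane, rose by 1.64 and 1.42 log2 units, the most of the list with guide 2. With the same guide, none of these tested genes reached the differences of Actg2 (4.74 and 4.70 on the same scale), Myl9 (2.76 and 2.93), Acta2 (3.07 and 2.11) or Lmod1 (2.84 and 1.92). Tagln was above them with guide 1 (4.57) and not with guide 2 (0.14). The 5 genes were chosen on these values, so nothing is read from their larger size.

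Cnn1 did not follow. This basic calponin, often used with Acta2 and Tagln to mark differentiated smooth muscle, averaged 193 ± 1.72 FPKM with guide 1, 83.4 ± 0.821 FPKM with guide 2 and 199 ± 2.41 FPKM in the control (SD, n = 3 each). It fell with guide 2 by 1.24 log2 units (SE 0.0347, limma adjusted p = 1.28e-09), while with guide 1 the difference was -0.04 (limma adjusted p = 0.307), which turned to 0.04 after quantile normalization and to 0.01 after trimmed mean rescaling. Pdlim3 and Pgm5, with means under 5 FPKM and named after their values were seen, were the other genes that fell, with log2 differences of -0.55 and -1.24 with guide 1 and of -1.23 and -0.51 with guide 2. Myh11, the smooth muscle myosin heavy chain, had group means of 0.0199, 0.0313 and 0.0134 FPKM in the guide 1, guide 2 and control libraries.

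**Figure D4:**
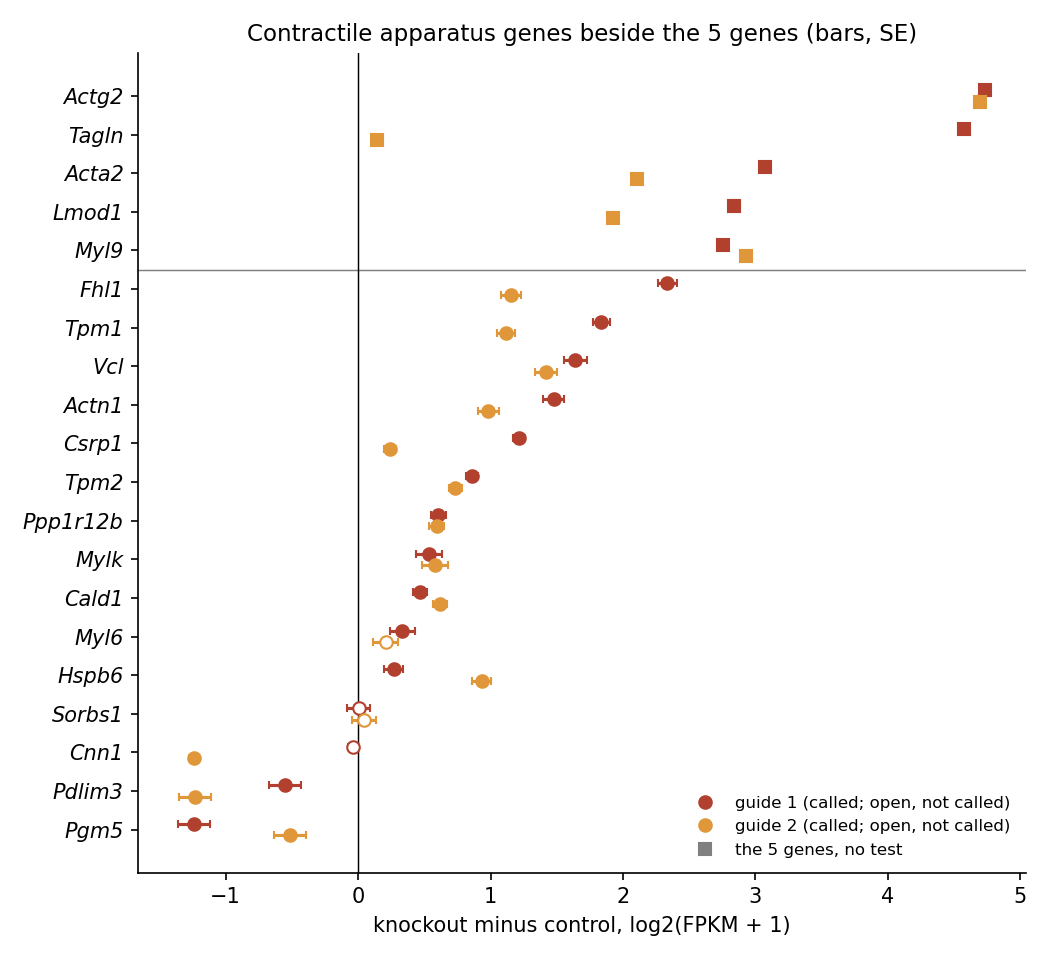
Knockout minus control on the log2(FPKM + 1) scale for the 15 tested contractile apparatus genes (circles, with the SE of the limma fit; open circles did not pass) and the 5 genes (squares, no test), guide 1 above guide 2 in each row. Acta2, Actg2, Myl9 and Lmod1 lie to the right of every circle of the same guide, and Tagln does so with guide 1 alone. With guide 2, Tagln is at 0.14 and Cnn1 is at -1.24.

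Transcripts of Srf, Mrtfa and Mrtfb averaged higher than the control in both knockouts. Srf averaged 63.0 ± 3.335 FPKM with guide 1, 53.1 ± 3.79 FPKM with guide 2 and 35.4 ± 3.09 FPKM in the control (SD, n = 3 each), and rose by 0.82 log2 units with guide 1 and 0.57 with guide 2 (limma adjusted p = 3.28e-06 and 5.44e-05, SE 0.0726). Mrtfa, a myocardin-related cofactor, averaged 19.4 ± 1.07, 17.98 ± 1.67 and 13.0 ± 1.14 FPKM in the guide 1, guide 2 and control libraries and rose by 0.54 and 0.44 log2 units (limma adjusted p = 0.000139 and 0.000728). Mrtfb, the related cofactor, averaged 6.70 ± 0.102 FPKM with guide 1, 3.13 ± 0.965 FPKM with guide 2 and 2.13 ± 0.164 FPKM in the control. It rose by 1.30 with guide 1 (limma adjusted p = 8.22e-06) and by 0.38 with guide 2 (limma adjusted p = 0.0268). The guide 2 call for Mrtfb was lost without control replicate 2 or 3 (0.0798 and 0.0542), with genes of low values kept (0.0833) and with only the libraries compared (0.0529). Myocd, myocardin itself, was not analysed here.

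Of 26 listed regulators, 20 had a row and 19 were tested. With guide 1, 12 rose and 4 fell, and with guide 2, 10 rose and 3 fell, against 30.2% and 37.9% of all tested genes with guide 1 and 31.9% and 33.5% with guide 2. Medians were 0.42 and 0.25, against -0.04 and -0.03 over all tested genes. Csrp2, a LIM protein that bridges SRF and GATA factors, averaged 34.0 ± 0.438 FPKM with guide 1, 42.1 ± 5.31 FPKM with guide 2 and 11.5 ± 0.916 FPKM in the control, and rose by 1.49 and 1.78 log2 units. Fhl2, a LIM protein that binds SRF, rose by 1.39 and 0.61, and Mef2d, a MADS box factor, by 0.74 and 0.83. Tead2, a TEAD factor, rose with guide 1 by 1.29 log2 units. With guide 2 the Tead2 difference was 0.11 (limma adjusted p = 0.24, or 0.0447 without control replicate 3).

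TGF-beta, a known inducer of Acta2 and Tagln, had 20 listed ligands, receptors, SMADs and targets, of which 13 had a row and 12 were tested. With guide 1, 8 rose and 2 fell, and with guide 2, 8 rose and 4 fell, against 30.2% and 37.9% of all tested genes with guide 1 and 31.9% and 33.5% with guide 2. Medians were 0.41 and 0.30, against -0.04 and -0.03 over all tested genes. Tgfb1 averaged 29.4 ± 0.298 FPKM with guide 1, 14.2 ± 0.287 FPKM with guide 2 and 8.97 ± 0.285 FPKM in the control (SD, n = 3 each), and rose by 1.61 log2 units with guide 1 and 0.61 with guide 2 (limma adjusted p = 5.26e-10 and 7.23e-07, SE 0.0431). Tgfb2 fell by 0.52 log2 units with guide 1 and fell by 1.499 with guide 2. Tgfb1i1, a focal adhesion protein known to be induced by TGF-beta, rose by 2.37 and 1.94 log2 units. Ccn2 averaged 635 ± 42.1, 82.7 ± 3.77 and 59.9 ± 11.03 FPKM in the guide 1, guide 2 and control libraries and rose by 3.397 and 0.47 log2 units, while the related Ccn1 rose by 0.24 and 0.93.

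The 6 tested genes taken as chromosomal neighbours of the 5 differed by at most 0.66 log2 units from the control, in both directions. Neighbours were taken by gene order in RefSeq (GRCm38.p6), as the nearest gene with a row on each side. Of the 6, only Pcsk7 and Shisa4 had no other RefSeq gene in between. Between Acta2 and Fas lay 1, and 3 each lay between Tagln and Pafah1b2, Myl9 and Tgif2, and Lmod1 and Rnpep. Those in between were not analysed here. Fas, beside Acta2, fell by 0.54 log2 units with guide 1 and 0.66 with guide 2 (limma adjusted p = 0.000243 and 7.32e-05, SE 0.0864). Pcsk7, whose span overlaps Tagln, averaged 5.46 ± 0.282, 5.76 ± 0.521 and 6.89 ± 0.328 FPKM in the guide 1, guide 2 and control libraries and fell by 0.29 and 0.23 log2 units (limma adjusted p = 0.00326 and 0.0138, where the guide 2 value was 0.0596 without guide 2 replicate 2). Pafah1b2, on the other side of Tagln, had a difference of -0.01 with guide 1 (limma adjusted p = 0.858), which turned to 0.03 after quantile normalization, and fell by 0.24 with guide 2 (limma adjusted p = 0.00139). Tgif2, beside Myl9, had differences of 0.23 and 0.05 with guide 1 and guide 2 (limma adjusted p = 0.0725 and 0.714), where the guide 2 difference changed sign without guide 2 replicate 2 or control replicate 2, and the guide 1 difference passed after quantile normalization (0.0312), after trimmed mean rescaling (0.0334), without guide 1 replicate 2 (0.0177) and without control replicate 3 (0.0203). Rnpep, beside Lmod1, rose by 0.55 with guide 1 (limma adjusted p = 1.7e-05), and Shisa4, on its other side, by 0.44 with guide 2 (limma adjusted p = 0.000421). The remaining comparisons of these genes were smaller, at 0.18 for Rnpep with guide 2 and 0.18 for Shisa4 with guide 1, and both calls were lost when single libraries were left out, with adjusted p up to 0.089 and 0.176. The neighbours Lipn, B230319C09Rik, Gm18537 and 4930405A21Rik were below the test level.

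Many markers of the cell types in which the 5 genes are usually found had no row. Nearly all rows share a direction between the guides, and how rows were picked is unknown. A missing row therefore says nothing about the level of a marker. Among markers with a row, several had group means under 1 FPKM, while Cnn1 averaged 199, Prrx1 26.6 and Cdh3 14.8 FPKM in the control. Of 14 smooth muscle and pericyte markers, 5 had a row, and Cnn1 made up nearly all of their summed level, which ran from 192 to 195 FPKM with guide 1, from 83.1 to 84.5 with guide 2 and from 196 to 201 in the control. The other 4 (Myh11, Rgs5, Notch3 and Rgs4) had group means of at most 0.139 FPKM, and Rgs5 was at 0 in the control. Of 14 fibroblast markers, 4 had a row, with sums of 32.1 to 35.0 FPKM with guide 1, 34.0 to 36.9 with guide 2 and 29.1 to 31.3 in the control. Prrx1 was the most abundant of them and fell with both guides, with log2 differences of -0.21 and -0.29. Twist2, a mesenchymal transcription factor, rose with both, with averages of 9.25, 5.60 and 2.51 FPKM in the guide 1, guide 2 and control libraries. Col1a2, a collagen I chain, averaged 0.0307, 0.827 and 0.0139 FPKM and was not tested. Postn, periostin, averaged 1.61, 7.83 and 1.30 FPKM in the guide 1, guide 2 and control libraries. Of 9 myoepithelial markers, 5 had a row and summed to 194 to 198, 85.2 to 86.9 and 212 to 216 FPKM in the guide 1, guide 2 and control libraries, with Cdh3, P-cadherin, at 0.369, 0.492 and 14.8 FPKM and Mylk, the myosin light chain kinase, at 1.93, 2.02 and 1.03 FPKM. Most of these sums was again Cnn1, which is in both lists, and Krt17 and Myh11 had group means of at most 0.125 FPKM. Cdh3 fell and Mylk rose with both guides. Of 17 squamous markers, 6 had a row, and the keratins Krt13, Krt15, Krt16 and Krt17 had group means of at most 0.735 FPKM, while Perp, a desmosomal protein, averaged 105, 83.4 and 79.1 FPKM. Sfn, stratifin, averaged 2.99, 1.61 and 1.03 FPKM and rose with both guides. Krt13, Krt15 and Krt16 were at 0 in the control, and the basal squamous markers Krt5, Krt14 and Trp63 were not analysed here, so the squamous label was checked only in part. Over their genes with a row, the striated muscle, leukocyte and endothelial lists summed to at most 0.833, 2.67 and 1.68 FPKM in any library. The part of other cell types in the levels of the 5 genes was not tested.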

How the data were processed

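Polyadenylated RNA of 9 ROC6 libraries was read in pairs from strand-specific libraries, per the labels' protocols. The authors deposited 1 table of FPKM values, per the file headers, under a name that speaks of common DEGs (differentially expressed genes). How its rows were chosen is not given in the sources used here. Tools named are cutadapt, FastQC, HISAT2 and StringTie, per the submitters' processing notes. No version, genome build or annotation is given in the sources used here. No further per-sample column was present (0). Rows of repeated symbols (174 rows, 62 symbols) were left out, and 0 pairs of libraries held identical values. Low FPKM values did not fall on steps of whole reads (over 958 genes, at most 3.24% of the ratios between a pair of libraries lay within 1% of a single value), so no counts were recovered.

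Groups and replicate numbers came from the sample titles. Values were analysed as log2(FPKM + 1), which understates fold changes of low genes. The 6965 genes that averaged at least 1 FPKM entered 1 limma model of all 9 libraries (limma 3.58.1, R 4.3.3, prior variance following the mean). A gene was called where its p, adjusted by Benjamini-Hochberg over these genes, was below 0.05. Rises and falls of genes other than the 5 refer to this test; p-values reflect how far these libraries scatter, and that scatter may be technical. Both knockouts share the 3 control libraries, whose column headers carry the mark g1 that their titles lack. The fit was tried on simulated data in which few genes were shifted, in 1 group only and with independent noise. In these libraries most tested genes were called, so that trial does not show how the fit performs here. The 5 genes and all lists were chosen with earlier results of these data known. The result of 1 further gene list is not reported here. Named were the 5 genes, the 3 largest called genes (averaging at least 5 FPKM) of each list and guide, the main SRF cofactors, paralogs, neighbours and the 3 nearest genes of each.

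The alternatives changed the pseudocount (0.1), the filter (none, or 5 FPKM), the scaling (quantile normalization, or means trimmed by 30% at either end), the model (a replicate block, 1 prior variance for all genes, or a fit of only the libraries compared) and the libraries (each left out once), and, chosen after seeing the data, p-values multiplied by 1.5. Sequences and motifs were read with Python 3.11.15.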

Additional observations from a re-analysis of the deposited data

Results flagged for a closer look

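With groups of 3 libraries no single library could be singled out by its distance from the others. For 8 of the named genes outside the 5, guide 2 and guide 1 differed from each other by at least 1 log2 unit in the direct comparison of the knockouts, in which the control cancels. Ccn2 averaged 82.7 ± 3.77 FPKM with guide 2 and 635 ± 42.1 FPKM with guide 1 (SD, n = 3 each), a difference of -2.92 log2 units. Cnn1 averaged 83.4 ± 0.821 FPKM with guide 2 and 193 ± 1.72 FPKM with guide 1, a difference of -1.20 (limma adjusted p = 3.32e-09). Fhl1 averaged 132 ± 3.23 FPKM with guide 2 and 300 ± 13.3 FPKM with guide 1, a difference of -1.18 (limma adjusted p = 5.85e-07). Tead2 averaged 10.2 ± 0.159 FPKM with guide 2 and 24.3 ± 1.58 FPKM with guide 1, a difference of -1.18 (limma adjusted p = 9.18e-07). Postn went the other way, at 7.83 ± 0.590 FPKM with guide 2 and 1.61 ± 0.171 FPKM with guide 1, a difference of 1.76 (limma adjusted p = 1.41e-06). The remaining 3 were named for their likeness to Tagln or Actg2 in these libraries, so their differences are descriptions with no test. Ccn2 was named both for its likeness to Tagln and from the TGF-beta list, so its difference is likewise given without a p. Krt18 averaged 5.01 FPKM with guide 2 and 119 FPKM with guide 1, a difference of -4.33. Pgf averaged 2.24 FPKM with guide 2 and 39.8 FPKM with guide 1, a difference of -3.66. Il1rl1 averaged 236 FPKM with guide 2 and 71.0 FPKM with guide 1, a difference of 1.72. Of the 8, 6 were lower and 2 higher with guide 2 in 3 of 3 libraries, as were 26.6% and 34.8% of the genes tested. Because the 8 were picked on this comparison, nothing is read from those counts or from the p-values printed with them. The causes of these differences were not tested.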

How the results depend on the processing

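Under 18 alternatives the counts of called genes stayed within 1.5 times the reported ones in all 3 comparisons. With genes of low values kept, 18 contractile apparatus genes rose with guide 1, against 11, since more genes were tested. With a filter of 5 FPKM, 0 fell with guide 1 and 1 with guide 2, against 2 and 3, since fewer were tested. Of 135 recomputed ratios of the 5 genes, 126 moved on the log2 scale by less than a combined replicate SD and the other 9 are given here. The combined SD was the root of the summed squared SDs of log2 FPKM in both groups compared. After quantile normalization the ratios to the control of Acta2 were 8.01 with guide 1 and 4.20 with guide 2, and guide 2 over guide 1 was 0.524; after trimmed mean rescaling the guide 1 ratio was 8.75. From means of log2(FPKM + 1) the ratios to the control were 26.6 and 25.9 for Actg2 and 7.15 and 3.79 for Lmod1 with guide 1 and guide 2, and 0.0464 for Tagln with guide 2 over guide 1; a pseudocount compresses low levels. With a pseudocount of 0.1, 1 of the 3 nearest genes of Acta2, Actg2 and Myl9 and 0 of Lmod1 was the same. With the replicate number as a replicate block, 4764, 4559 and 3784 genes were called with guide 1, with guide 2 and between the knockouts, against 4745, 4557 and 3793. Deviations of same-numbered libraries correlated between -0.107 and 0.245. Between the knockouts the correlations were 0.245, 0.0219 and 0.210 for numbers 1, 2 and 3, and against the control they ran from -0.107 to 0.0556. Not every library correlated best with its own number, so the numbers were not taken as pairs. Whether same-numbered knockout libraries were handled together was not tested. Depth is unknown and gives no limit for values near 0.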

Other observations

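Of the 27 contractile apparatus genes with a row, 12 lay below the test level, with group means of at most 1.64 FPKM, and 4 of these were listed at 0 in all 3 control libraries. The guide 1 mean was above the control mean for 10 of the 12 and the guide 2 mean for 10, and both were below it for 2. Of the 15446 uniquely named rows, 7051 had both knockout means above the control and 8390 had both below. With nearly all rows sharing a direction, the guide 2 count is not separate from the guide 1 count. The examples here were chosen after their values were seen, and none was tested. Itga8, an integrin subunit of smooth muscle, stood at 0.558, 0.633 and 0.666 FPKM with guide 1 and at 0.0996, 0.116 and 0.0965 FPKM with guide 2, and was listed at 0 in the control. Kcnmb1, the smooth muscle subunit of a calcium-activated potassium channel, stood at 0.285, 0.3003 and 0.272 FPKM with guide 1 and at 0.0197, 0 and 0 FPKM with guide 2, and was also listed at 0 in the control. Jph2, a junctophilin of muscle, stood at 0.865, 0.695 and 0.846 FPKM with guide 1, at 0.155, 0.174 and 0.242 FPKM with guide 2, and at 0.0349, 0.0211 and 0 FPKM in the control. Aoc3, an amine oxidase of smooth muscle and fat, had the other order, at 0.619, 0.579 and 0.722 FPKM with guide 1, 1.45, 1.66 and 1.80 FPKM with guide 2, and 0.0781, 0.242 and 0.272 FPKM in the control. The 2 with both knockout means below the control were Smtnl2, a smoothelin-like gene, at 0.228, 0.192 and 0.142 FPKM with guide 1, 0.0843, 0.0830 and 0.0803 FPKM with guide 2 and 0.240, 0.242 and 0.225 FPKM in the control, and Synm, the intermediate filament protein synemin, with every library between 0.0536 and 0.126 FPKM.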
